A study of Mus musculus with 8 samples.

Results

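The enzymes that write and erase marks on histones and DNA were examined in the mouse seminal vesicle, an accessory gland whose secretion makes up much of the semen volume. Members were taken by gene symbol, as every measured gene named as a lysine demethylase (Kdm), lysine methylase (Kmt), lysine acetylase (Kat), histone deacetylase (Hdac), sirtuin (Sirt), DNA methylase (Dnmt), TET dioxygenase (Tet1 to Tet3), SET domain protein (Setd), EZH methylase (Ezh1 and Ezh2) or arginine methylase (Prmt). Of 17258 genes with a value, 76 matched and 75 were kept, since the Y-linked Kdm5d was left out by the rule. Seminal vesicles came from 8 male outbred Swiss mice of 8 to 12 weeks. In the acrylamide group 4 mice were injected into the peritoneum with acrylamide, a reproductive toxicant, at 25 mg/kg on each of 5 days, and in the control group 4 mice were given the vehicle, phosphate buffered saline (PBS), on the same days. Tissue was collected 72 h after the last injection, with prostate and vesicle fluid removed beforehand. Poly(A) RNA was sequenced, and each library came from the tissue of 1 mouse. The tissue holds epithelium, smooth muscle, vessels and leukocytes, so that fewer cells of a type and less RNA per cell cannot be told apart.

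Each gene has 1 value per group, called its level here, which is a number of reads per library after division by a size factor for depth. Levels are not corrected for transcript length unless given per kilobase. With 1 value per group there is no spread between mice for most members, so differences between the groups are described and not tested. The ratio of the groups is given on a log2 scale after 1 was added to both levels, positive where acrylamide was higher, and a 95% interval beside it covers counting error only (an exact binomial interval on the reads behind both levels). For 7 members with few reads the whole reads of each of the 8 libraries could be recovered from the digits of the values, and these are the only members for which replicate error is known. The levels summed to 30956651 normalised reads per library in control and 27433231 in acrylamide. Of these sums the 15 epithelium markers held 70.5% in control and 67.7% in acrylamide, most of it in 7 seminal vesicle secretory (Svs) genes (65.0% and 62.1%), so the marker genes of the labelled tissue led the data. The 75 chromatin enzymes held 0.0942% in control. If both groups were set to the same total in place of the deposited scaling, every log2 ratio, of members and other genes alike, would be higher, in most by about 0.17. In genes with few reads the rise would be smaller because of the 1 added, as from 0.35 to 0.46 in Dnmt3l.

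Chromatin is DNA wound on histone proteins, and its enzymes act in opposing pairs. Acetylases place acetyl groups on histone lysines, which goes with open chromatin and transcription, and deacetylases and sirtuins remove them. Lysine methylases of the KMT2 and SETD1 groups mark active promoters and enhancers, EZH1 and EZH2 place the repressive mark of Polycomb, and KDM enzymes take methyl groups off again. DNMT1 copies DNA methylation onto the new strand after replication, DNMT3A and DNMT3B methylate new sites, and the TET enzymes oxidise methylcytosine towards its removal. In the male accessory glands these enzymes are known mainly as coregulators of the androgen receptor, which drives growth and secretion of the seminal vesicle.

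Promoter sequences are shown for the members whose levels differed most between the groups, to let the starts of genes higher and lower in acrylamide be compared. RefSeq (GRCm38.p6, the build mm10) held promoters of 63 of the 75 members, as windows of 300 bases from 250 before to 50 after a transcript start. Of the 7 members past a fold of 1.2 between the groups (described below), 6 had 1 such window and Kdm2b had 4. The windows were Kmt2a at chr9:44881240-44881539 (- strand), Kmt2d at chr15:98871156-98871455 (- strand), Ezh2 at chr6:47594981-47595280 (- strand), Prmt1 at chr7:44986371-44986670 (- strand), Sirt5 at chr13:43365285-43365584 (+ strand) and Kdm8 at chr7:125444370-125444669 (+ strand). That of Kmt2d lies wholly inside the span of its gene (chr15:98831669-98874077), at a transcript start downstream of the outermost 5′ end. Each is printed 5′ to 3′ on the strand of its gene, with matches on either strand to the GC box (GGGCGG), the CCAAT box (CCAAT), the ETS core (CCGGAA), the E2F core (TTTGGCG) and the TATA box (TATAAA) in capitals.
Kmt2a: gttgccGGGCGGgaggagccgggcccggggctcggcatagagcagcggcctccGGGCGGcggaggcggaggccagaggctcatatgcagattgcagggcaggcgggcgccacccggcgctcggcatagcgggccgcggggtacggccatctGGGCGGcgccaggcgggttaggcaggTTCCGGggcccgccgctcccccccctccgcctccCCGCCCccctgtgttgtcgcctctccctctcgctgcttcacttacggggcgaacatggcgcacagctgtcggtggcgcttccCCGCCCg
Kmt2d: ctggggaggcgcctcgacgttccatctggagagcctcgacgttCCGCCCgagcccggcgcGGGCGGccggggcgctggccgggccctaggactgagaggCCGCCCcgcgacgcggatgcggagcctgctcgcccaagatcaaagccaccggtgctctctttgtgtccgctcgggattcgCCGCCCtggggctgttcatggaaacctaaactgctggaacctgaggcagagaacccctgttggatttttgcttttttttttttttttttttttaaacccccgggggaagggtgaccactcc
Ezh2: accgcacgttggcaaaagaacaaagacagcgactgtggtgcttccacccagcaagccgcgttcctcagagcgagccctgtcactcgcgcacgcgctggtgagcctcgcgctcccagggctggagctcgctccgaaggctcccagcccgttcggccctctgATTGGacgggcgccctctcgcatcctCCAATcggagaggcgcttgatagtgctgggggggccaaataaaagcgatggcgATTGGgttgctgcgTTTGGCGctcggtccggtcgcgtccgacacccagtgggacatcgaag
Prmt1: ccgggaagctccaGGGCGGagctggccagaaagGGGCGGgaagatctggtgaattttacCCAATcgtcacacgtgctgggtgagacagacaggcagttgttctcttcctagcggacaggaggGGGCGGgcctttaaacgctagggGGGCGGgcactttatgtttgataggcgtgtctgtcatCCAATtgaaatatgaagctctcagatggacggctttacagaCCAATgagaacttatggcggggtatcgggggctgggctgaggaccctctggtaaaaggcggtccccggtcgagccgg
Sirt5: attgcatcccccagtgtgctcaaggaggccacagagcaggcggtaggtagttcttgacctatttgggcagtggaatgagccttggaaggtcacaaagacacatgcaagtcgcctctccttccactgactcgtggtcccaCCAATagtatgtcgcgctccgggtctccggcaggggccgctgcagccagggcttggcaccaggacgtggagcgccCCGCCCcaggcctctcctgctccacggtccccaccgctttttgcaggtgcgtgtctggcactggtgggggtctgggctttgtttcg
Kdm8: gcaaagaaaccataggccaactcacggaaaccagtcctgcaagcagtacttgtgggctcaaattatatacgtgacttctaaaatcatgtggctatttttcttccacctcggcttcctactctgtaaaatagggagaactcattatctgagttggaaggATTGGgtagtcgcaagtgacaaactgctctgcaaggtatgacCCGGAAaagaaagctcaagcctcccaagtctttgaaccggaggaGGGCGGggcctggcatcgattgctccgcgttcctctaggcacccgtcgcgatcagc
The 3 members higher in acrylamide held 5 (Kmt2a), 4 (Kmt2d) and 0 (Ezh2) GC boxes. The 3 lower members held 4 (Prmt1), 1 (Sirt5) and 1 (Kdm8). Ezh2 alone of the 6 had an E2F core, beside 3 CCAAT boxes, and none of the 6 had a TATA box. No base of the 6 windows lay in matches to more than 1 motif. Over all 89 windows of the members 62.9% held a GC box, 40.4% a CCAAT box, 22.5% an ETS core, 3.37% an E2F core and 3.37% a TATA box. In all 32851 windows of RefSeq genes these shares were 35.7%, 37.4%, 14.9%, 1.56% and 13.6%. In the 7958 windows of the genes with a control level above 150 they were 65.8%, 36.8%, 29.6%, 2.45% and 6.84%, so that the members' windows were close to those of other abundant genes in their GC boxes. The same held for CpG dinucleotides, with a median of 21 per window in the members, 22 in the abundant genes and 7 in all windows. A match is a run of letters and not a bound site.

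Nearly all of these enzymes were measured well above the detection limit. Control levels ranged from 0.911 (Kdm4d) to 1805 (Kmt5a) with a median of 301.5, against a median of 109.5 for all genes, and 56 of 75 members lay above 150 where 44.6% of all genes did. A mean of both groups of at least 10, the minimum for a ratio, was reached by 71 members, and Dnmt3l, Kdm4d, Tet1 and Hdac9 stayed below it. Per kilobase of the longest transcript the median was 76.2 in the members and 34.2 in all genes, and 57 of 75 members lay above the latter. Kmt5a, which places the first methyl group on lysine 20 of histone H4, came first with 659 normalised reads per kilobase in control. Sirt2, a cytoplasmic deacetylase of tubulin, followed with 501, Setd3, an actin histidine methylase, with 393, and Hdac3, a class I histone deacetylase, with 305. The acetylases Kat2b (245 per kilobase) and Kat2a (206 per kilobase) and the arginine methylase Prmt1 (212 per kilobase) were next. The lowest control levels per kilobase were those of Kdm4d (0.338), Dnmt3l (0.589), Tet1 (0.649) and Hdac9 (0.844).

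**Figure D1:**
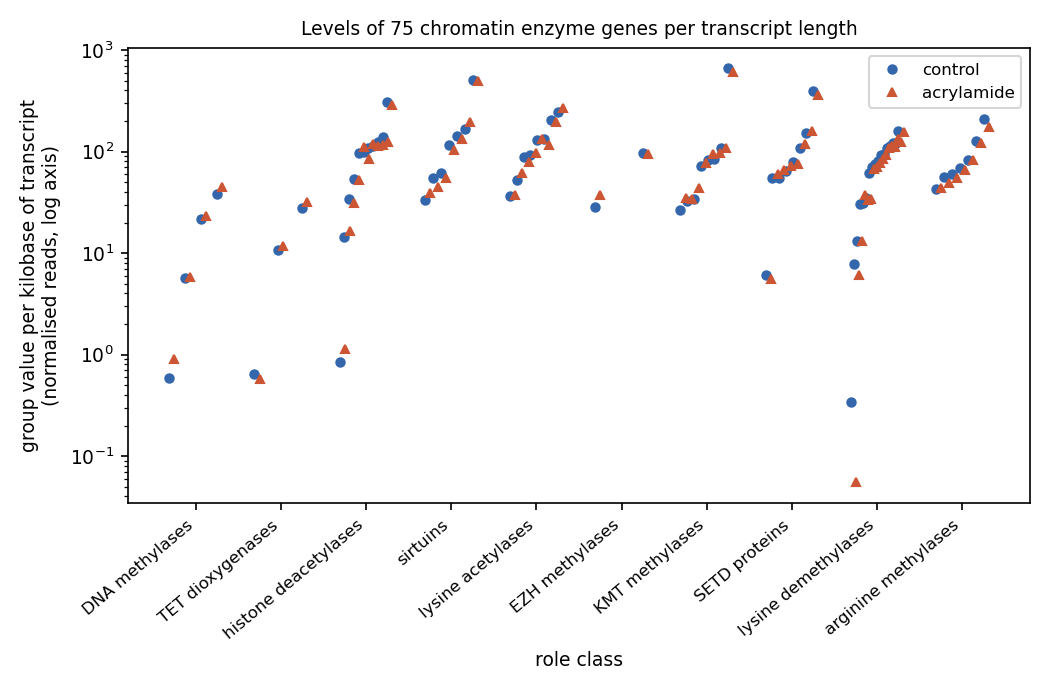
Level per kilobase of the longest transcript (normalised reads per kilobase, log axis) of each of the 75 members in control (circles) and acrylamide (triangles), by role class and in rising order within a class. Each symbol is 1 group value without error, Kmt5a is highest at 659 in control, and the acrylamide symbol of Kdm4d at 0.0552 is the value listed for a gene without a read in that group.

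At the deposited scaling few of these enzymes differed between acrylamide and control tissue. At a fold of 1.5, no member was higher and no member was lower in acrylamide, where 3.92% of the 13002 genes with a mean of at least 10 were higher and 0.838% were lower. At a fold of 1.2, 4 of 71 members were higher (Kmt2a, Ezh2, Kmt2d and Kdm2b), against 14.2% of all genes, and 3 were lower (Kdm8, Sirt5 and Prmt1), against 6.31%. Both shares of the members were below those backgrounds. The counts depended on the scaling: 24 members were higher and 0 lower with both groups at the same total, and 8 were higher and 1 lower at the same total without the Svs genes. All genes moved along, to medians of 0.17 and 0.06 at those scalings, beside 0.21 and 0.09 in the members. The shares of all genes past the fold at those scalings are not given here, so these counts have no background. The members are more abundant than most genes, and among the 8932 genes with a mean of at least 100 the backgrounds were 6.45% higher and 4.23% lower, beside 3 and 2 of 65 members. The median log2 ratio was 0.03 in the members and 0.0002 in all genes, with quartiles of -0.08 and 0.13 in the members and -0.11 and 0.14 in all genes. Of the 71 members 39 had a positive and 32 a negative log2 ratio. Counting error alone left an interval above 0 for 24 members and below 0 for 9. Such intervals were made for the members only, so these counts have no background to be set against. Spread between mice adds to counting error. It was taken from 411 genes, Dnmt3b among them, whose reads per library were recovered at 150 to 200 normalised reads in all. Their coefficient of variation beyond counting was 22.0% at the median. Counting error left out, this gives a standard error of 0.22 for a log2 ratio of 4 against 4 libraries. Against that borrowed standard error no member lay beyond 2 standard errors (0.449) at the deposited scaling, and the farthest lay at 1.75. With both groups at the same total, where all genes had a median of 0.17, some members lay past 0.449. These were Kmt2a (0.566), Ezh2 (0.559), Kmt2d (0.517) and Kdm2b (0.451). Kdm2b lay only just past this limit, which leaves out counting error. Abundant members may vary less between mice than those genes, which these values cannot show.

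**Figure D2:**
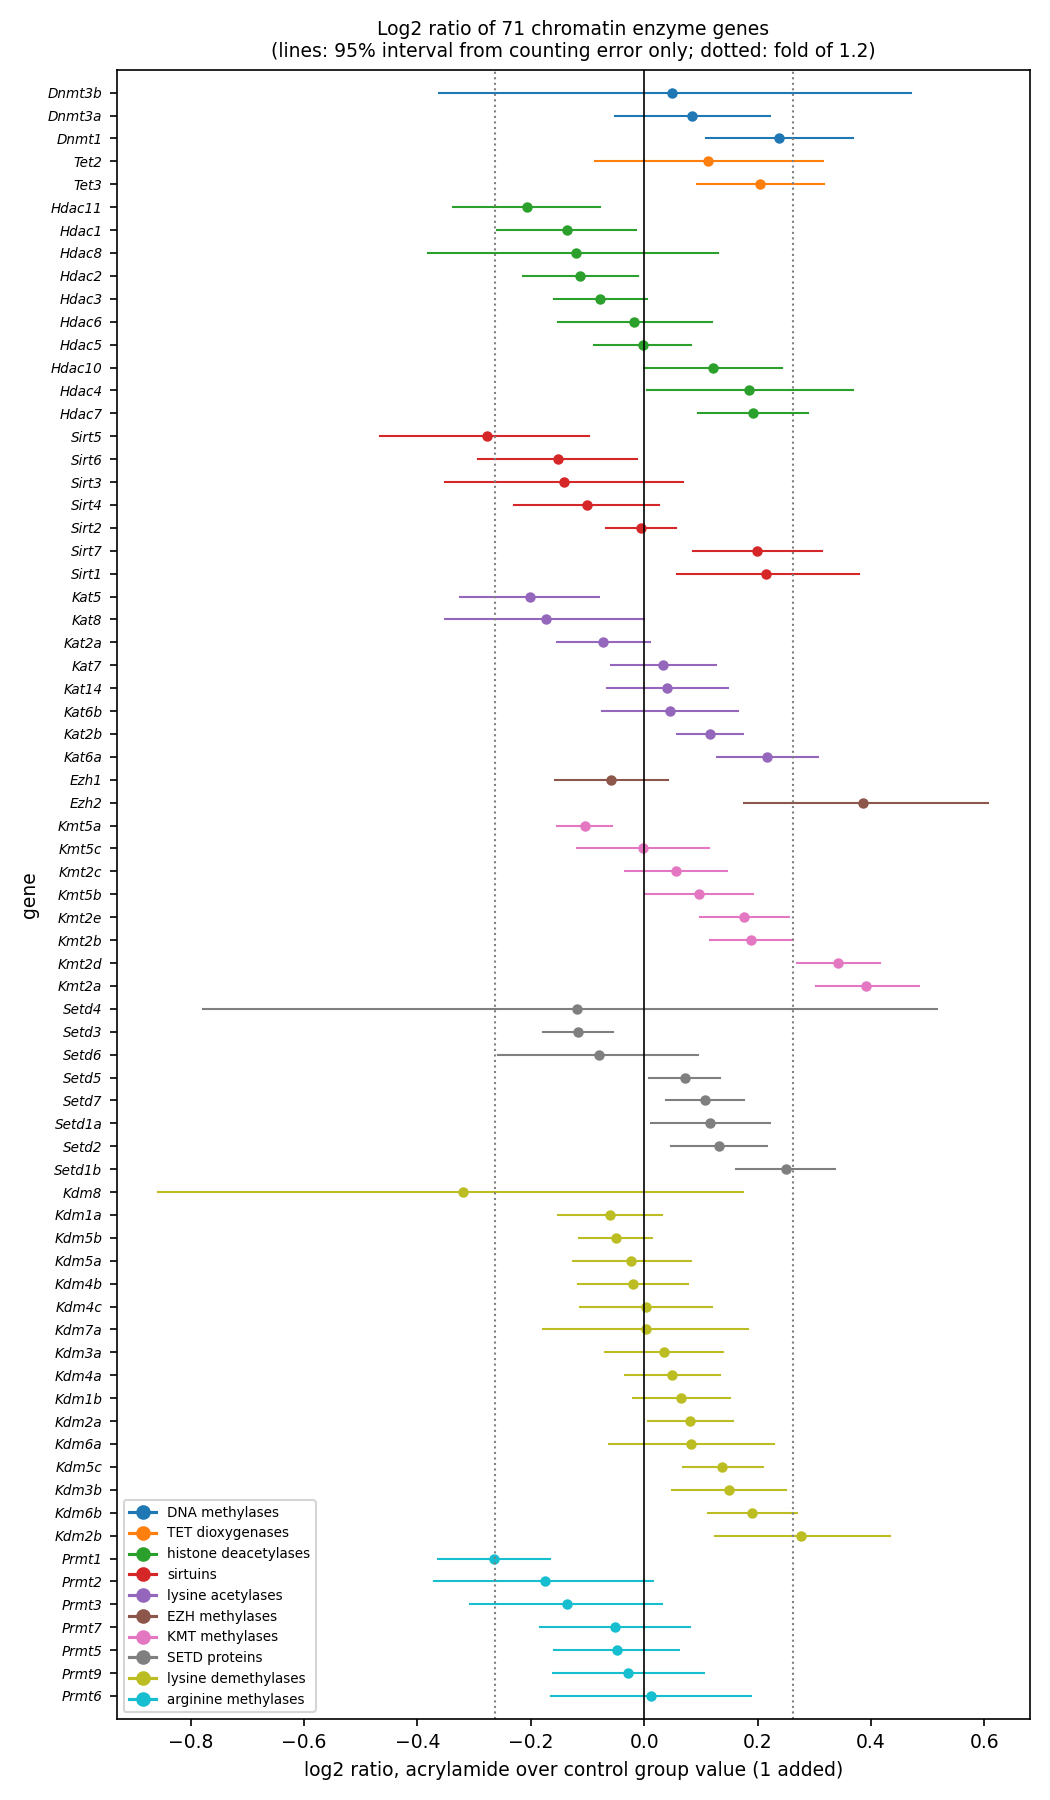
Log2 ratio of acrylamide to control level for the 71 members with a mean level of at least 10, by role class (colours), with 95% intervals from counting error only (lines) and a fold of 1.2 in either direction (dotted). Kmt2a (0.39), Ezh2 (0.39), Kmt2d (0.34) and Kdm2b (0.28) lie past the right dotted line and Kdm8 (-0.32), Sirt5 (-0.28) and Prmt1 (-0.26) past the left. With both groups at the same total all points would move right by about 0.17.

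The methylases of lysine 4 of histone H3 are the KMT2 and SETD1 groups. All 5 Kmt2 genes and both Setd1 genes had a positive log2 ratio, with a median of 0.19 over the 7. Their longest transcripts are all over 6000 bases, and of all genes of that length with a mean of at least 100, 78.8% were positive with a median of 0.09. With the median of genes of like length subtracted, a step chosen after the data were seen, the median of the 5 Kmt2 genes was 0.09. Kmt2a, the methylase that keeps homeobox genes active, sits at chr9:44803355-44881352, and its level was 434 in control and 570 in acrylamide. Its log2 ratio was 0.39 (counting interval 0.30 to 0.48), and 8.47% of all genes had a higher ratio. Kmt2d, an enhancer methylase at chr15:98831669-98874077, went from 682 in control to 865 in acrylamide, a log2 ratio of 0.34 (0.27 to 0.42). Kmt2b, which serves bivalent promoters, had levels of 697 and 794 (0.19), and Kmt2e, a family member without known methylase activity, 622 and 703 (0.18). Kmt2c, the close paralogue of Kmt2d, had 489 and 508 (0.06). Setd1b had 492 and 585 (0.25) and Setd1a 357 and 387 (0.12). The 11 measured subunits that these complexes share, such as WDR5 and ASH2L, had a median of -0.0013 (0.17 with both groups at the same total). At the deposited scaling 5 of 11 were positive and none was past a fold of 1.2 in either direction.

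The demethylases of the same lysine lay on both sides of 0. Kdm1a, the flavin-dependent demethylase LSD1, had levels of 488 and 468 (log2 ratio -0.06), and its paralogue Kdm1b 539 and 564 (0.06). Of the Kdm5 group, Kdm5b, the most abundant demethylase before correction for length, had 997 and 963 (-0.05), Kdm5a had 379 and 373 (-0.02), and the X-linked Kdm5c had 777 and 855 (0.14). Kdm2b, which recruits a Polycomb complex to unmethylated CpG islands, lies at chr5:122870664-122989270, and its level was 158 in control and 191 in acrylamide. Its log2 ratio was 0.28 (0.13 to 0.43), while that of its paralogue Kdm2a was 0.08 at levels of 690 and 731. Over the 16 demethylases with a mean of at least 10 the median was 0.04, with 11 positive and 5 negative. Beside Kdm6a, Kdm6b and Kdm8, described below, the rest (Kdm3a, Kdm3b, Kdm4a, Kdm4b, Kdm4c and Kdm7a) had log2 ratios from -0.02 to 0.15.

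EZH1 and EZH2 are alternative catalytic subunits of Polycomb repressive complex PRC2, EZH2 in dividing cells and EZH1 in resting ones. By the longest transcript Ezh1 was the more abundant, at 97.8 per kilobase in control and 94.0 in acrylamide, and its log2 ratio was -0.06 (-0.16 to 0.04). Ezh2, at chr6:47530274-47595270, had 28.3 per kilobase in control and 37.2 in acrylamide. Uncorrected for length its level was 79.0 in control and 104 in acrylamide, a log2 ratio of 0.39 (0.18 to 0.61). The level of Ezh1 per kilobase was thus 3.45 times that of Ezh2 in control and 2.53 times in acrylamide. By the shortest annotated transcript this order was not stable, with 113 (Ezh1) and 101 (Ezh2) per kilobase in control and 109 (Ezh1) and 132 (Ezh2) in acrylamide. The demethylases of the PRC2 mark had levels of 187 and 198 (Kdm6a, log2 ratio 0.08) and 627 and 716 (Kdm6b, 0.19). The 27 other Polycomb subunits and partners with a mean of at least 10 had a median of -0.01 at the deposited scaling, 12 of them positive and none past a fold of 1.2. With both groups at the same total their median was 0.17, and Ezh1 was at 0.12 and Ezh2 at 0.56.

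Of the 7 DNA methylases and TET enzymes none with a mean of at least 10 differed by a fold of 1.2 at the deposited scaling. With both groups at the same total Dnmt1 (0.41), Tet3 (0.38) and Tet2 (0.29) were higher past that fold. All genes had a median of 0.17 there. By the longest transcript Dnmt1 was the most abundant of the 7 per kilobase (38.1 in control and 45.0 in acrylamide), followed by Tet3 (27.6 and 31.9), Dnmt3a (21.9 and 23.2), Tet2 (10.8 and 11.6) and Dnmt3b (5.62 and 5.83). By the shortest annotated transcript it came in control, with 42.6, after Tet3 (643), Dnmt3a (454) and Tet2 (233). Dnmt1 had levels of 224 and 264, a log2 ratio of 0.24 (0.11 to 0.37). Tet3 had levels of 301 and 348, a log2 ratio of 0.21 (0.09 to 0.32). The intervals of Dnmt3a (0.08, -0.05 to 0.22) and Tet2 (0.11, -0.09 to 0.32) spanned 0 from counting error alone. All 5 genes of these classes with a mean of at least 10 had a positive ratio. Below that mean, on few reads, Tet1 was at -0.15 and Dnmt3l at 0.35. Of all genes with that mean 50.1% were positive. Dnmt3a, Tet2 and Tet3 have transcripts over 6000 bases, where 78.8% of genes with a mean of at least 100 were positive. With the median of genes of like length subtracted, a step chosen after the data were seen, Dnmt3a was at -0.02 and Tet2 at 0.01. On that scale Dnmt3b was at 0.04, Tet3 at 0.10 and Dnmt1 at 0.17.

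Among the erasers of acetylation most ratios were negative, where 50.1% of all genes with a mean of at least 10 were positive. For the 10 histone deacetylases the median was -0.05, with 7 negative, and this median was 0.13 when both groups had the same total. With the median of genes of like length subtracted (chosen after the data were seen), it was -0.02 over the 9 with a mean of at least 100. The most abundant by uncorrected level were Hdac3 (619 in control and 586 in acrylamide, log2 ratio -0.08), Hdac5 (547 and 546, -0.003) and Hdac7 (408 and 466, 0.19). Hdac1 and Hdac2, the paired catalytic subunits of the NuRD and Sin3 complexes, had log2 ratios of -0.14 and -0.11. Hdac4 (0.18) and Hdac10 (0.12) were the other positive members, the X-linked Hdac6 (-0.02) and Hdac8 (-0.12) were negative, and Hdac11 was the most negative at -0.21 (levels 261 and 226).

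For the 7 sirtuins, deacylases that consume NAD, the median was -0.10 with 5 negative, and 0.07 with both groups at the same total. Their median transcript length was 1891 bases. Of all genes under 3000 bases with a mean of at least 100, 23.4% were positive. Sirt5, a mitochondrial enzyme that removes succinyl and malonyl groups, lies at chr13:43365389-43395203, and its level was 133 in control and 110 in acrylamide. Its log2 ratio was -0.28 (-0.47 to -0.10), and 5.58% of all genes had a lower ratio. Sirt2 had nearly the same level in both groups, 1062 and 1057. Sirt4, a mitochondrial sirtuin, had 258 and 240 (-0.10). The nuclear Sirt1 (148 and 172, 0.22) and the nucleolar Sirt7 (291 and 334, 0.20) were the positive members. The other mitochondrial sirtuin, Sirt3 (-0.14), and the nuclear Sirt6 (-0.15) were negative.

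The 8 lysine acetylases had a median log2 ratio of 0.04, with 5 positive and 3 negative. Kat2b, or PCAF, was the most abundant by uncorrected level, with 1141 in control and 1237 in acrylamide (0.12), while its paralogue Kat2a, or GCN5, had 626 and 596 (-0.07). Kat6a, a MYST family acetylase, had 482 and 560 (0.22). Kat5, the catalytic subunit of the TIP60 complex of DNA repair and transcription, was the most negative at -0.20 (levels 290 and 252), next to Kat8 at -0.17. Kat7, Kat14 and Kat6b lay between 0.03 and 0.05.

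The remaining lysine methylases included the most abundant members. Kmt5a had 1805 in control and 1678 in acrylamide, a log2 ratio of -0.11, while Kmt5b (0.10) and Kmt5c (-0.002), which add further methyl groups to the same histone H4 lysine, lay nearer 0. Setd3 had 1084 and 1000 (-0.12), Setd5 1030 and 1082 (0.07) and Setd7 808 and 870 (0.11). Setd2, the methylase of lysine 36 of histone H3 that travels with RNA polymerase II, had 544 and 596 (0.13), and Setd6 had 136 and 129 (-0.08). The 7 arginine methylases had a median of -0.05, with 6 negative, and of 0.12 with both groups at the same total. Their median transcript length was 2691 bases, also in the range under 3000 bases where 23.4% of all genes were positive. Prmt1, the main enzyme for asymmetric arginine dimethylation, lies at chr7:44976755-44986420, and its level was 454 in control and 378 in acrylamide. Its log2 ratio was -0.26 (-0.36 to -0.17). Prmt5, which makes the symmetric mark, had 340 and 329 (-0.05) and Prmt7 239 and 230 (-0.05). Prmt2 (-0.17), Prmt3 (-0.14), Prmt9 (-0.03) and Prmt6 (0.01) completed the class.

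Replicate error was known for the 7 members with few reads, and none of them passed the test between the groups. Libraries are numbered within a group by their size factor, highest first, since they could not be matched to single mice. Size factors were 0.883 to 1.02 in control and 1.02 to 1.11 in acrylamide. The exact two-sided permutation test over the 70 divisions of the libraries, on log2 of the normalised reads plus 1, cannot give a p below 0.0286, and p was adjusted by the Benjamini-Hochberg method over the 3577 genes with recovered reads and a mean of at least 1. In none of the 6 members with such a mean did the groups fail to overlap, where 4.17% of those genes had groups that did not overlap. The smallest adjusted p of any gene was 0.686, and 149 genes had an exact p below 0.05.

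Dnmt3b had 19, 33, 18 and 22 reads in the 4 control libraries and 24, 32, 23 and 28 in the 4 acrylamide libraries. The groups overlapped, the highest and lowest after scaling both being control libraries. Its normalised reads were 24.3 ± 7.15 (SD, n = 4) in control and 25.2 ± 3.80 (SD, n = 4) in acrylamide, with an exact p of 0.771. Of 7 sets of whole reads that its sum allowed, the division of the value between the groups left 1.

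Kdm8, or JMJD5, an oxygenase first described as a demethylase, had the most negative log2 ratio of the 71 members, -0.32, at chr7:125444620-125463651. It had 28, 17, 14 and 12 reads in control and 13, 12, 23 and 14 in acrylamide. The highest library of each group stood above the other 3, and the groups overlapped. Its normalised reads were 18.4 ± 6.23 (SD, n = 4) in control and 14.7 ± 5.25 (SD, n = 4) in acrylamide (exact p = 0.343, adjusted p = 0.899), so that its place past the fold of 1.2 lay within the spread between mice.

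Tet1, the TET enzyme of stem and germ cells, had 4, 13, 8 and 10 reads in control and 5, 11, 9 and 10 in acrylamide. Library 1 was the lowest of each group and the rest overlapped (exact p = 0.771). Setd4 had 9, 16, 8 and 9 reads in control and 12, 9, 10 and 12 in acrylamide, and apart from the control library with 16 they lay together (exact p = 0.8). Hdac9, a class IIa deacetylase known from muscle, had 15, 3, 2 and 6 reads in control and 19, 9, 4 and 7 in acrylamide, and library 1 was the highest of each group (exact p = 0.429). The T cell marker Cd3e, chosen after its values were seen, was also highest in library 1 of each group, with 18, 15, 8 and 11 reads in control and 37, 6, 8 and 11 in acrylamide, and its part in the reads of Hdac9 was not tested.

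Dnmt3l, the cofactor of DNMT3A in germ cells, was near the detection limit, with 0, 1, 2 and 1 reads in control and 4, 0, 1 and 2 in acrylamide (exact p = 0.8). Kdm4d, known from the testis, had 0, 2, 2 and 0 reads in control and 0 in each acrylamide library. With 4 reads against 0, the acrylamide group was under a floor of 3 reads, and a difference was not detectable at this depth (exact p = 0.429). The listed group values of 0.911 and 0.149 do not stand for a fold.

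**Figure D3:**
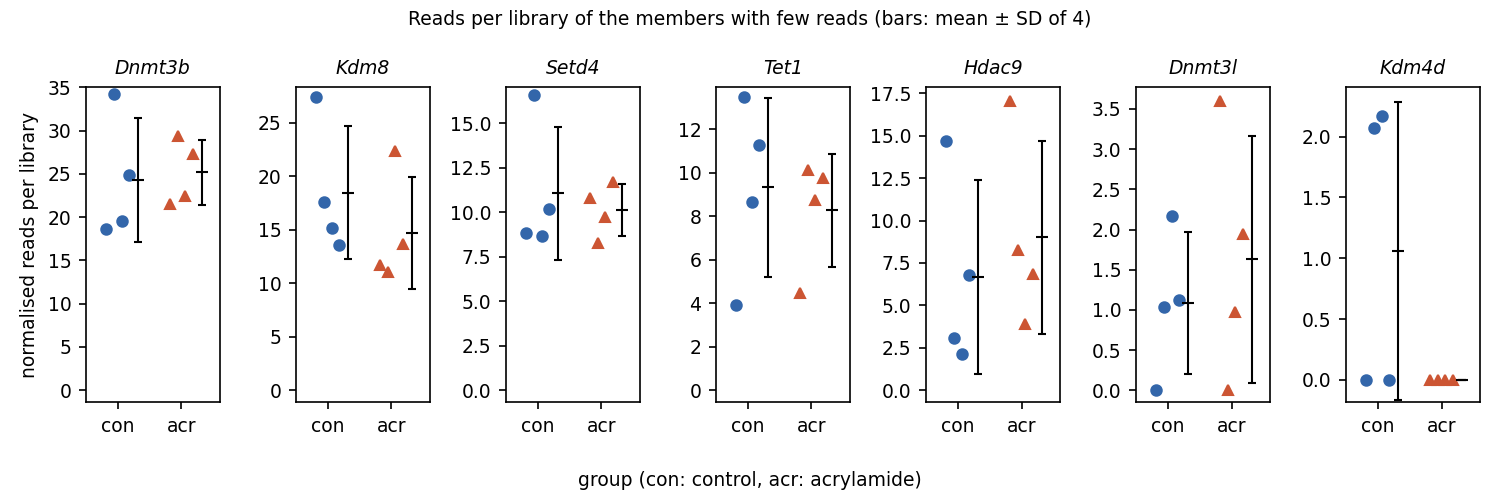
Normalised reads of each library for the 7 members with recovered reads, control (circles) beside acrylamide (triangles), with the mean ± SD of 4 libraries as black bars. The groups overlap in each panel, and for Kdm4d 2 control libraries have 2 reads each and the other 6 libraries none.

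The size and sign of the ratios went with transcript length. Among the 65 members with a mean level of at least 100, Spearman's rho between the log2 ratio and the length of the longest transcript was 0.69, and Pearson's r with log2 length was 0.70. Over all 8735 such genes rho was 0.51 and r was 0.37. These correlations run across genes measured in the same libraries, which are not independent replicates, so they are descriptions. Of the members with transcripts of at least 6000 bases 22 of 24 had a positive ratio, with a median of 0.12, beside 78.8% and 0.09 in all genes of that length. From 3000 to 6000 bases 13 of 21 members were positive with a median of 0.03, beside 55.0% and 0.01. Under 3000 bases 2 of 20 were positive, Sirt7 and Hdac10, with a median of -0.11, beside 23.4% and -0.09.

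Length and role overlapped among the members. The 5 Kmt2 transcripts were 7317 to 19823 bases long, whereas the class median was 1891 bases for the sirtuins and 2691 for the arginine methylases. With the median of all genes of like length subtracted, a step chosen after the data were seen, 3 members were higher by a fold of 1.2. Ezh2 (0.43) and Kmt2a (0.28) had been so before, and Sirt7 (0.29) had not. On that scale Kmt2d and Kdm2b were both at 0.23, below the fold of 1.2. No member was lower by that fold, with Prmt1 at -0.18, Sirt5 at -0.22 and Kdm8 at -0.26. Of the 5 Kmt2 genes 4 stayed positive, and the median became -0.01 for the 7 sirtuins and -0.04 for the 7 arginine methylases. The share of all genes past that fold after the subtraction is not given here, so the 3 members have no background on that scale. Without the subtraction, 22.9% of all genes with transcripts of at least 6000 bases were higher and 1.69% lower by a fold of 1.2. Under 3000 bases, where Prmt1, Sirt5, Kdm8 and Ezh2 lie, 10.2% were higher and 9.23% lower. The part of transcript length in the ratio of any member was not tested.

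**Figure D4:**
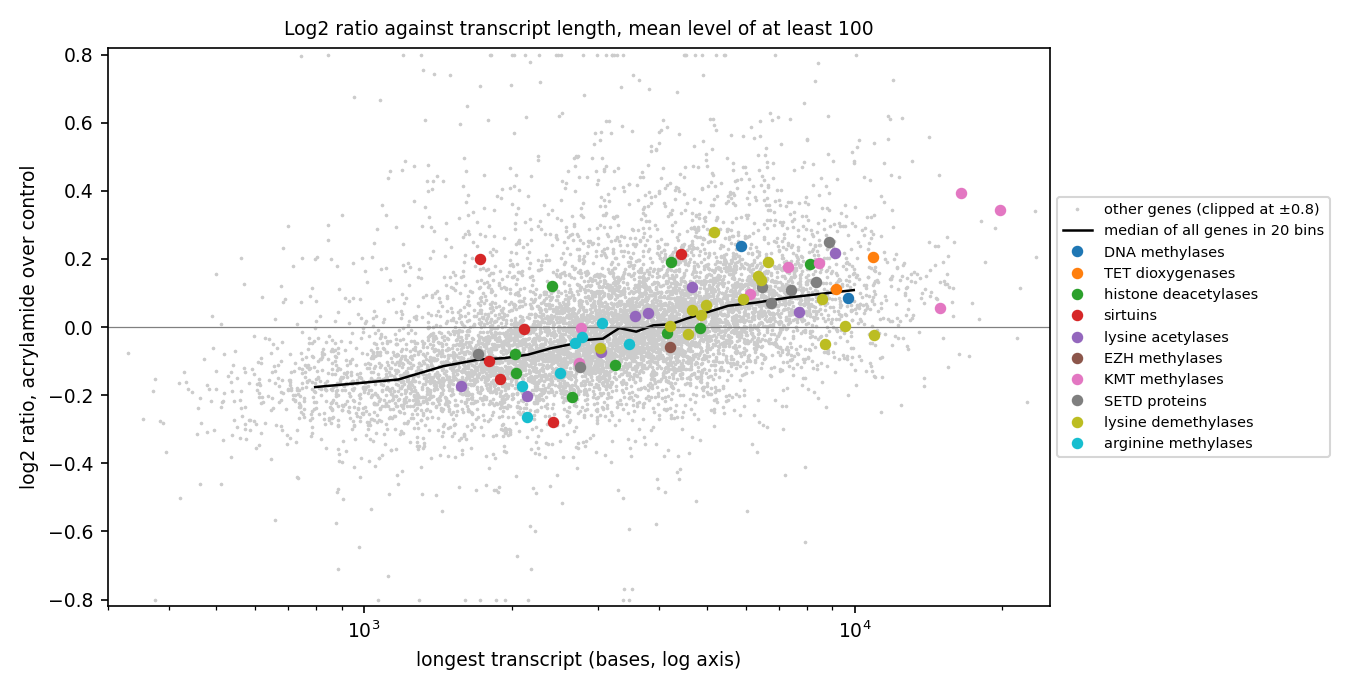
Log2 ratio of acrylamide to control level against the length of the longest transcript (bases, log axis) for genes with a mean level of at least 100, members coloured by role class over all other genes (grey, drawn at the edge beyond ±0.8), with the median of all genes in 20 bins of length (line). The members follow the line, from a median of -0.11 under 3000 bases to 0.12 at 6000 bases and above.

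Partners of these enzymes were taken from lists of other chromatin genes, and their counts past a fold of 1.2 stand beside the 14.2% of all genes that were higher and the 6.31% that were lower. The 10 other demethylases and relatives all had a positive ratio, with a median of 0.09, and 2 were past a fold of 1.2. These were Hr, a demethylase of skin and hair follicle, with 139 in control and 206 in acrylamide (log2 ratio 0.56), and Riox1, with 116 and 140 (0.27). Of 19 other SET domain methylases 2 were higher and none lower past that fold, with a median of 0.06. Of 24 other acetylases and subunits 1 was higher, Ep300, the p300 acetylase (427 and 525, 0.30), and 1 lower, Taf6l (177 and 147, -0.27), with a median of 0.07. Of 27 corepressor subunits 4 were higher, among them Tbl1x (179 and 223, 0.32), and none lower, with a median of -0.02. Rcor1, the partner of LSD1, was past a fold of 1.5 at 73.3 and 114 (0.63), and was named after its values were seen. Of 31 remodellers 3 were higher, among them Chd1 (297 and 383, 0.37) and Chd9 (171 and 210, 0.30), and none lower, with a median of 0.06. Of 19 genes that supply methyl and acetyl donors and cofactors none was higher, with a median of -0.02. The 1 that was lower, D2hgdh, which clears 2-hydroxyglutarate, an inhibitor of TET and KDM enzymes, had 106 in control and 45.7 in acrylamide (-1.20), and was named after its values were seen because it falls below the mean of 100 set for naming.

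The 21 partners of DNA methylation had a median of 0.06, with 5 higher (beside 14.2% of all genes) and 1 lower (beside 6.31%) past a fold of 1.2. Those described here were chosen after their values were seen. Uhrf1, which brings DNMT1 to replicated DNA, had a level of 49.7 in control and 101 in acrylamide, a log2 ratio of 1.01, and its reads per library were not recovered. Hells, a remodeller needed for DNA methylation, had 21, 15, 21 and 9 reads in control and 33, 24, 26 and 26 in acrylamide. Its groups overlapped narrowly once scaled (exact p = 0.0571, adjusted p = 0.763). Gadd45a, a stress gene linked to DNA demethylation, had 22, 22, 19 and 12 reads in control and 25, 41, 27 and 28 in acrylamide, also with overlap (exact p = 0.0571, adjusted p = 0.763). Gadd45b had 18, 11, 20 and 11 reads in control and 35, 14, 24 and 32 in acrylamide (exact p = 0.114). The lower gene, Cxxc4, a CpG-binding partner of TET2, had 33, 29, 29 and 5 reads in control and 9, 33, 21 and 17 in acrylamide, and here the spread between libraries exceeded the difference (exact p = 0.6).

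**Figure D5:**
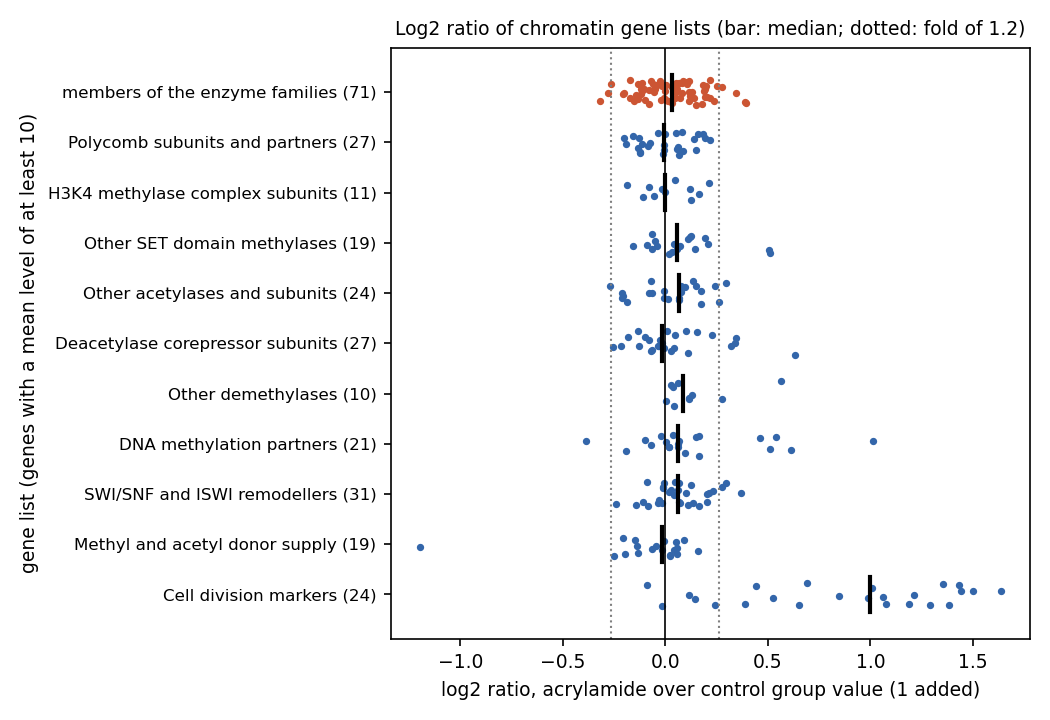
Log2 ratio of acrylamide to control level for each gene with a mean of at least 10, for the members (top) and for 10 other gene lists (number of genes in brackets), with the median as a black bar and a fold of 1.2 dotted. The chromatin lists have medians between -0.02 and 0.09 (0.16 to 0.26 with both groups at the same total), the cell division markers 1.00.

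Genes of the cell division cycle, with which Ezh2, Dnmt1 and Uhrf1 are known to be expressed in dividing cells, were higher in acrylamide. Of 24 cell division markers 22 had a positive ratio and 19 were past a fold of 1.2, none lower, with a median of 1.00. Mki67, the proliferation antigen, had 90.8 in control and 239 in acrylamide (1.39), and Top2a had 80.0 and 162 (1.01). The 7 of these markers with recovered reads summed to 53.9 to 99.9 normalised reads in the control libraries and to 376, 69.9, 214 and 118 in acrylamide libraries 1 to 4, which overlapped (exact p = 0.114). Library 1 was also the highest acrylamide library for the recovered prostate markers (85.3, 7.35, 28.2 and 4.87) and leukocyte markers (44.9, against at most 17.5 in the other 3). Smooth muscle markers (6 of 9 higher past a fold of 1.2, median 0.33), endothelial markers (5 of 8, 0.42) and leukocyte markers (4 of 9, 0.23) were higher as well, with none lower past that fold. The leukocyte marker with the most reads, Cd52, lay the other way, at 81971 in control and 70358 in acrylamide (-0.22). Epithelium markers (3 of 15 lower and none higher, median -0.16) and prostate markers (2 of 7 lower, -0.14) were lower, and with both groups at the same total these last medians were 0.02 and 0.03. The 2 lower prostate markers were Mmp7 (-0.87) and Spink1 (-0.44), and 2 of the 7 were positive, Msmb among them (23.0 in control and 27.0 in acrylamide). The paper reports uniquely high Spink1 and Tgm4 in the seminal vesicle, so that this list does not stand for prostate tissue alone. Of 4 testis germ cell markers measured 2 had a mean of at least 10, neither past a fold of 1.2. The part of dividing cells or of the make-up of the tissue in the levels of Ezh2, Dnmt1 or any other member was not tested.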

How the data were processed

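Seminal vesicle RNA of 4 control and 4 acrylamide mice was analysed from 1 table. According to the methods and labels, the authors removed poor reads (SOAPnuke), aligned the rest to mm10 (HISAT2), added predicted genes (StringTie, Cufflinks and CPC) and counted reads per gene (RSEM); versions are not given in the sources used here. The signal values, as deposited by the authors, give each gene 1 level in each group, in reads after division by the size factors of the authors' DESeq2 run and without correction for gene length. How the 2 group values were made is not stated. In genes with recovered reads they average to the mean of the 8 libraries. In the 1236 of these with a mean of at least 10 their log2 ratio was within 0.026 of that of the recovered group means. The recovery kept only reads that met this mean and, at that level, a ratio near that of the group values. Neither result is therefore an independent check of how the values were made. Further columns hold the authors' own comparison (fold changes and p-values) and were not used.

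Members, lists and tests were chosen with earlier results of these data known. Ratios used a pseudocount of 1 and a minimum mean of 10. Whole reads per library were recovered for 5490 of 5500 genes whose normalised reads summed to under 200. They were found from 8 values worth 1 read each, on which all 593 of 593 genes with a sum under 1.3 lay, and were tested with an exact permutation test (scipy 1.17.1, numpy 2.4.6, pandas 2.3.3, Python 3.11.15). The recovery and the test were checked on simulated data. Transcript lengths were those of GENCODE vM21, promoters and positions those of RefSeq GRCm38.p6.

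Values were given for each member past a fold of 1.2, the 3 members of each class with the highest control level, members with recovered reads, and up to 2 genes per list with the largest change among those past a fold of 1.2 with a mean of at least 100, of which 1 is not reported here. Other members were named for their role, after their values were seen. Alternatives in scaling, pseudocount, minimum, fold, transcript and left-out library were tried.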

Additional observations from a re-analysis of the deposited data

Results flagged for a closer look

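Among 40 groups of 4 libraries examined for a library far from the other 3 (6 members, 11 other genes and 3 summed marker lists, in both groups), 2 stood apart, and chance alone flags about 1 in 20. In Cxxc4, the CpG-binding partner of TET2, the lowest control library had 5.64 normalised reads, whereas the other 3 lay between 30.0 and 32.3. The summed prostate markers with recovered reads (Msmb and Sbp) were highest in a control library, at 90.0 normalised reads, against 2.94 to 4.51 in the other 3, and were 4.87 to 85.3 in the acrylamide libraries. No library of a chromatin enzyme with recovered reads stood apart in this way.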

How the results depend on the processing

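The counts of members past a fold of 1.2 depended on the scaling. With both groups at the same total over all genes 24 were higher and 0 lower, and the median of the members was 0.21, beside 0.17 in all genes. At the same total without the Svs genes 8 were higher and 1 lower. With the median of abundant genes set to 0, and with a pseudocount of 5, 1 was lower, and with the trend on transcript length subtracted (chosen after the data were seen) 0 were lower. A fold of 1.3 left 2 higher and 0 lower. Without a minimum level 1 member, Kdm4d, was lower by a fold of 1.5. An equal upper quartile, a pseudocount of 0.5 and minimum levels of 50 and 100 kept each of these counts within 1.5 times. Transcript choice moved the order per kilobase, with Sirt2 at place 20 and Hdac3 at place 36 by the shortest transcript.

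Leaving out each library in turn gave exact p-values of 0.114 to 0.686 for Kdm8, 0.143 to 0.8 for Hdac9 and 0.2 to 1 for Dnmt3b. Depth limits Dnmt3l and Kdm4d to a few reads. No paired analysis was possible because the recovered libraries could not be matched to the replicate numbers of the labels, and the other members have 1 value per group.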
